A study of Rattus norvegicus with 8 samples.

Results

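The genes of DNA replication and of S phase, the stage of the cell cycle in which the genome is copied, were followed in cells from the healing fractures of rats. The set holds 41 named genes chosen by their known roles, with earlier results of these data known. The member counts set beside shares of all genes below therefore describe these libraries and are no independent support. Of these, 40 were listed in the deposited count tables and 1, Chaf1a, was in none of them. A mean of at least 5 counts per 1000000 UMIs (CPM) over the 8 libraries was reached by 36 members, and ratios are given for these. Mcm5, Cdt1, Uhrf1 and Pole were listed but lay below that mean. The tables list 12282 genes in all, and 7226 of them reached the same mean.

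The cells came from the callus, the repair tissue that forms around a broken bone, of femora of Sprague Dawley rats, and each library is 1 single-cell RNA sequencing run. The 4 treatments were zoledronate with CGRP, zoledronate with magnesium, zoledronate alone, and a control that is labelled untreated. Each was sampled at weeks 12 and 4 after fracture, which gives 1 library for each treatment and week. Zoledronate, a bisphosphonate that slows bone resorption, was injected under the skin at 0.3 mg/kg per week during the 12 weeks before fracture, and the CGRP and magnesium groups carried it too. CGRP is calcitonin gene-related peptide, a neuropeptide. The libraries are called the CGRP, magnesium, zoledronate and control libraries. Tissue was digested for 4 h with collagenase A, and the released cells were held in a dish for 24 h, so levels are those of cells after this time in culture. The sources used here do not give the number of rats per library, the ages, the dose of CGRP, or which group had a steel or a magnesium-containing nail. With 1 library per group there is no spread between replicates, so values are compared without p-values. Intervals cover counting error only.

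Replication starts when origins are licensed by loading the MCM helicase, and the helicase fires once Cdc45 and the GINS complex join it. Primase and the DNA polymerases then copy both strands, held by the clamp Pcna, while ribonucleotide reductase and its partner enzymes supply deoxynucleotides and chaperones supply histones. Many of these genes are known targets of E2F transcription factors, which the retinoblastoma family of pocket proteins holds back in resting cells. In callus, dividing skeletal progenitors and fibroblastic cells are known to express them.

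The promoters of members are shown because the genes moved together between libraries, and E2F is the factor best known for this gene class. In RefSeq's rat assembly GRCr8, 36 of the 41 members had an entry, with 39 promoters among them. Letters TTTCCCGC, TTTGGCGC, TTTCGCGC, TTCCCGCC or TTGGCGCC were sought on both strands in the 250 bases before the start. TTTCCCGC overlaps TTCCCGCC, and TTTGGCGC overlaps TTGGCGCC. Such letters lay in 16 of the 39 member promoters (41.03%), against 399 of 6097 promoters (6.54%) of genes with a mean of at least 5 CPM. Of all 33469 promoters, 990 (2.96%) held them, and 1 of 17 promoters (5.88%) of a list of mitosis genes did. With the 50 bases after the start included, the E2F letters lay in 26 of 39 member promoters (66.7%), 1 of 17 mitosis promoters, 8.004% of promoters of genes with a mean of at least 5 CPM and 3.67% of all promoters. In the 250 bases, the CCAAT letters lay in 21 of 39 member promoters (53.9%) and in 14 of 17 mitosis promoters (82.4%), against 34.02% of all promoters. The CHR letters TTTGAA or TTCGAA lay in 8 of 39 member promoters (20.5%) and in 8 of 17 mitosis promoters (47.1%), against 17.4% of all promoters. With the 50 bases included, the CCAAT letters lay in 56.4% of member and 82.4% of mitosis promoters. CHR letters then lay in 23.1% of member and 64.7% of mitosis promoters, against 19.7% of all promoters. These matches describe letters, not sites in use. The capitals below mark the E2F letters. The promoters shown were all taken from those with E2F letters. Mcm2 and Mcm6 are helicase subunits, and Gins1 was among the members with the largest differences at week 4. Slbp and Ung departed from the other members at week 12. Tk1, Clspn, Prim1, Pcna, Pold3 and Dut departed there too and held none of the letters sought in the 250 bases. Other forms of the E2F letters were not sought, so these promoters may still hold such forms. Rrm2, which also departed, had no entry. Whether these letters have a part in departure was not tested.
Mcm2 (chr4:122918095-122918344, minus strand): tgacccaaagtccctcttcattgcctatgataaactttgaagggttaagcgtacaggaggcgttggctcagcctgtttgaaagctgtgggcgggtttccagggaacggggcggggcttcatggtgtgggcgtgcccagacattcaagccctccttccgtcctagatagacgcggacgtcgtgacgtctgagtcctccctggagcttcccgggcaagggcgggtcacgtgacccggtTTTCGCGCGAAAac
Mcm6 (chr13:42404353-42404602, minus strand): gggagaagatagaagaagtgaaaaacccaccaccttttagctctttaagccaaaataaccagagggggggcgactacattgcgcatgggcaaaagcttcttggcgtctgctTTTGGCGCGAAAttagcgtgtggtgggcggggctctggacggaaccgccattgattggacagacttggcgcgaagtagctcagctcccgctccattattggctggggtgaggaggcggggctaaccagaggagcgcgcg
Gins1 (chr3:160184670-160184919, plus strand): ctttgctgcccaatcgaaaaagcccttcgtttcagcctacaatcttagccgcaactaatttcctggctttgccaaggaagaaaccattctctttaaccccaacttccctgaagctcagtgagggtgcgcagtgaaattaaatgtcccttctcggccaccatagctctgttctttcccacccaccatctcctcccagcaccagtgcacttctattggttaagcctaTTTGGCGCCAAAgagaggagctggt
Slbp (chr14:81295998-81296247, plus strand): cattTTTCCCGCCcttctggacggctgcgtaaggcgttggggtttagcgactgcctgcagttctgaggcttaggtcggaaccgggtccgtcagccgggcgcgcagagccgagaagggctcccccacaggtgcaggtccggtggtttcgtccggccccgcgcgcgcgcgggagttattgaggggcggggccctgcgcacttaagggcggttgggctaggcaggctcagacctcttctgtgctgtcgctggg
Ung (chr12:48154046-48154295, minus strand): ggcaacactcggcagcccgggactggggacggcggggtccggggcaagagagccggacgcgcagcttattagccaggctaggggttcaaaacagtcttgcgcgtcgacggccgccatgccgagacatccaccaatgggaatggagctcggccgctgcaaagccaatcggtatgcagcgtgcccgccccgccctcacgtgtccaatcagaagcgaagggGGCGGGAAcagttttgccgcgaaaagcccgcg

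The 8 libraries held 7541 to 10670 barcodes, of which 6809 to 10370 had at least 5000 unique molecular identifiers (UMIs, 1 per captured transcript) and were summed into CPM. The median UMI count of these cells was 12742 in the CGRP library of week 12 and 16083 to 20545 in the other libraries. Pairs of libraries shared 13 to 31 barcodes. At these depths the 95% counting interval of a member's CPM reached at most 7.37% to either side for values of at least 5 CPM. All 10 fibroblastic markers had UMIs in every library, summing to 28731 to 48781 CPM. Markers of blood cells and macrophages summed to 11.1 to 21.9 CPM and endothelial markers to 37.0 to 51.9 CPM. Osteoblast markers summed to 269.8 to 1176 CPM, chondrocyte markers to 80.7 to 316 CPM and osteoclast markers to 58.8 to 163 CPM. Of the defining markers, Ptprc was listed in the CGRP and the zoledronate library of week 12 alone, at 0.068 and 0.058 CPM, Cdh5 was listed in no library, Bglap reached at most 0.204 CPM and Col2a1 at most 0.073 CPM.

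The summed level of the members differed between libraries. At week 12 the 40 listed members summed to 960.1 CPM (95% counting interval 955.1 to 965.1) with CGRP, 953.8 CPM (95% counting interval 949.1 to 958.6) with magnesium, 667.8 CPM (95% counting interval 663.7 to 671.8) with zoledronate alone and 1709.5 CPM (95% counting interval 1702.7 to 1716.4) in control. At week 4 they summed to 1971.0 CPM (95% counting interval 1964.0 to 1977.9) with CGRP, 1320.2 CPM (95% counting interval 1314.4 to 1326.0) with magnesium, 1243.1 CPM (95% counting interval 1237.5 to 1248.6) with zoledronate alone and 1698.3 CPM (95% counting interval 1691.7 to 1705.0) in control. The zoledronate library of week 12 had the lowest sum of the 8, and the CGRP library of week 4 the highest. The mitosis list, 19 listed genes such as Mki67 and Ccnb1 that act later in the cycle, summed at week 12 to 532.8 CPM with CGRP, 509.2 CPM with magnesium, 197.7 CPM with zoledronate alone and 1186.9 CPM in control. The mitosis sums of week 4 were 1756.3 CPM with CGRP, 839.3 CPM with magnesium, 767.9 CPM with zoledronate alone and 1242.7 CPM in control. Members divided by mitosis genes gave at week 12 a ratio of 1.802 with CGRP, 1.87 with magnesium, 3.38 with zoledronate alone and 1.44 in control, and at week 4 1.12 with CGRP, 1.57 with magnesium, 1.62 with zoledronate alone and 1.37 in control. The zoledronate library of week 12 was thus the poorest in both lists, and the mitosis list had the lower sum of the pair in each library. The sums run over 40 members and 19 mitosis genes, so the order of the pair is not a comparison per gene. The fibroblastic marker sum was lowest in the CGRP library of week 4, at 28731 CPM, and in the control library of week 12, at 29682 CPM, both rich in members. The control library of week 4, also rich in members, had 47481 CPM, close to the 48781 CPM of the zoledronate library of week 12. The osteoclast marker sum was lowest in the same libraries, at 59.4 CPM with CGRP at week 4 and at 58.8 CPM in control at week 12. It was 141.6 CPM with zoledronate alone at week 12, and 125.6 CPM in control at week 4. The part of these markers in the result was not tested.

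**Figure D1:**
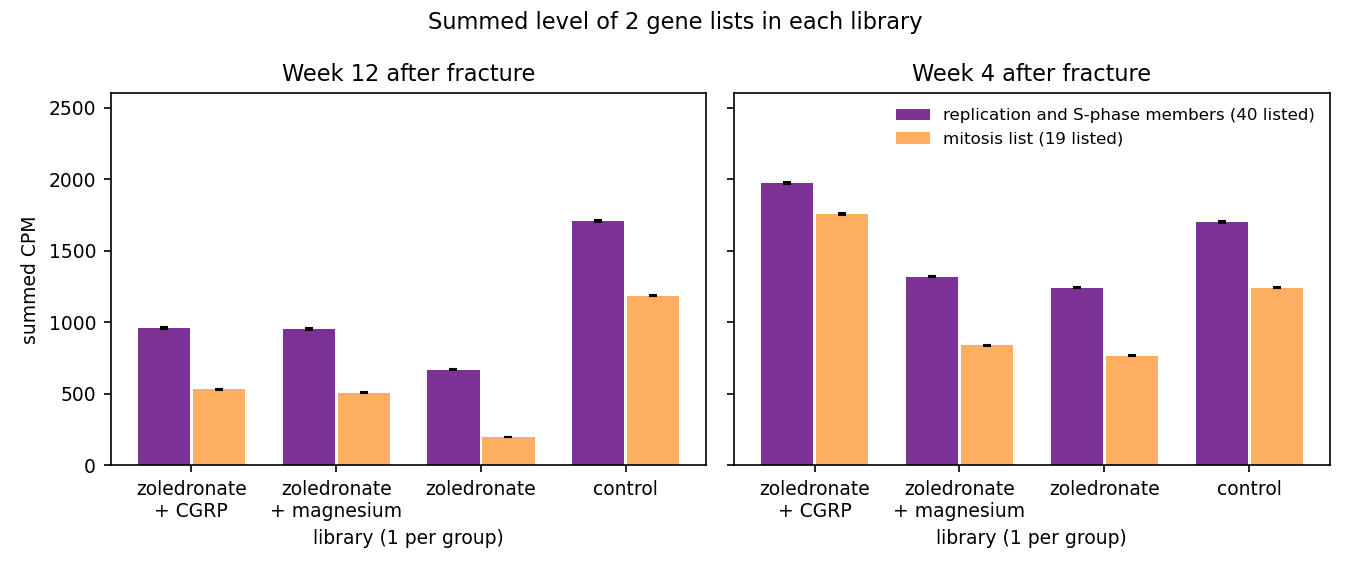
Summed CPM of the 40 listed replication and S-phase members (purple) and of the 19 listed mitosis genes (orange) in each of the 8 libraries, with exact 95% Poisson intervals as bars. The zoledronate library of week 12 is lowest for both lists, at 667.8 CPM for the members.

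Zoledronate set against control showed lower levels of nearly every replication gene at week 12, and a smaller difference in the same direction at week 4. At week 12 all 36 members were lower with zoledronate, with a median log2 ratio of -1.47 (0.360-fold), against a median of -0.12 over all 7226 genes. At least 1.5-fold lower were 35 of 36 members, where 12.1% of all genes were, and 30 were at least 2-fold lower, where 4.54% of all genes were. At week 4 all 36 were lower too, with a median of -0.45, against -0.00 over all genes. Only 3 members, Rfc5, Gins1 and Tk1, were at least 1.5-fold lower at week 4, where 1.15% of all genes were. The difference between the weeks in this contrast rests on 1 library per cell of the design. When libraries were scaled by TMM or DESeq2 factors, the median of all genes at week 12 shifted by 0.11 or 0.13, and all 36 members stayed below 0.

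CGRP added to zoledronate went with higher levels of replication genes at both weeks. At week 12, 34 of 36 members were higher with CGRP, with a median log2 ratio of 0.66, against 0.01 over all genes. At least 1.5-fold higher were 20 members, where 6.02% of all genes were, and 4 were at least 2-fold higher, where 2.34% of all genes were. At week 4 all 36 members were higher, with a median of 0.59 against -0.01 over all genes. Again 20 members were at least 1.5-fold higher, where 4.30% of all genes were, and 1 member, Tk1, was at least 2-fold higher, where 1.18% of all genes were. The median at week 4 lies so close to the 1.5-fold line, 0.58 on the log2 scale, that the count of members past it turns on small differences.

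Magnesium added to zoledronate went with a difference of similar size to that of CGRP at week 12 and a small one at week 4. At week 12, 34 of 36 members were higher with magnesium, with a median log2 ratio of 0.62, against 0.07 over all genes. At least 1.5-fold higher were 21 members, where 7.79% of all genes were, and 4 were at least 2-fold higher, where 3.29% of all genes were. At week 4 the median was 0.12, against -0.01 over all genes, with 33 members above 0 and 3 below. At that week 0 members were at least 1.5-fold higher or lower, where 0.595% of all genes were higher and 0.567% lower. All the treatment comparisons of a week share the zoledronate library of that week, so a high or low value there enters each of them. At week 12 the summed levels of the CGRP and magnesium libraries, 960.1 and 953.8 CPM, lay between those of the zoledronate and the control library.

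Week 12 set against week 4 differed by treatment. In control cells the median log2 ratio of the members was -0.02, against 0.05 over all genes, with 17 members higher and 19 lower at week 12. Of the control members 0 were 1.5-fold lower or higher, where 4.61% and 7.86% of all genes were. With TMM or DESeq2 scaling, 5 members (Mcm4, Mcm6, Rfc5, Fen1 and Slbp) changed sign in control, giving 12 higher and 24 lower. In zoledronate cells all 36 members were lower at week 12, with a median of -1.02, and 32 were at least 1.5-fold lower, where 6.14% of all genes were. At least 2-fold lower were 20 of them, where 2.56% of all genes were. In CGRP cells all 36 were lower, with a median of -0.97, and 34 were at least 1.5-fold lower, where 7.32% of all genes were. At least 2-fold lower were 15 of them, where 3.09% of all genes were. In magnesium cells all 36 were lower, with a median of -0.45, and 7 were at least 1.5-fold lower, where 4.89% of all genes were. Whether these differences between treatments exceed the spread between rats could not be tested. Over the 8 libraries, 24 of the 36 members were highest in the CGRP library of week 4, 7 in the control library of week 12 and 5 in the control library of week 4. The zoledronate library of week 12 was lowest for 34 of the 36.

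**Figure D2:**
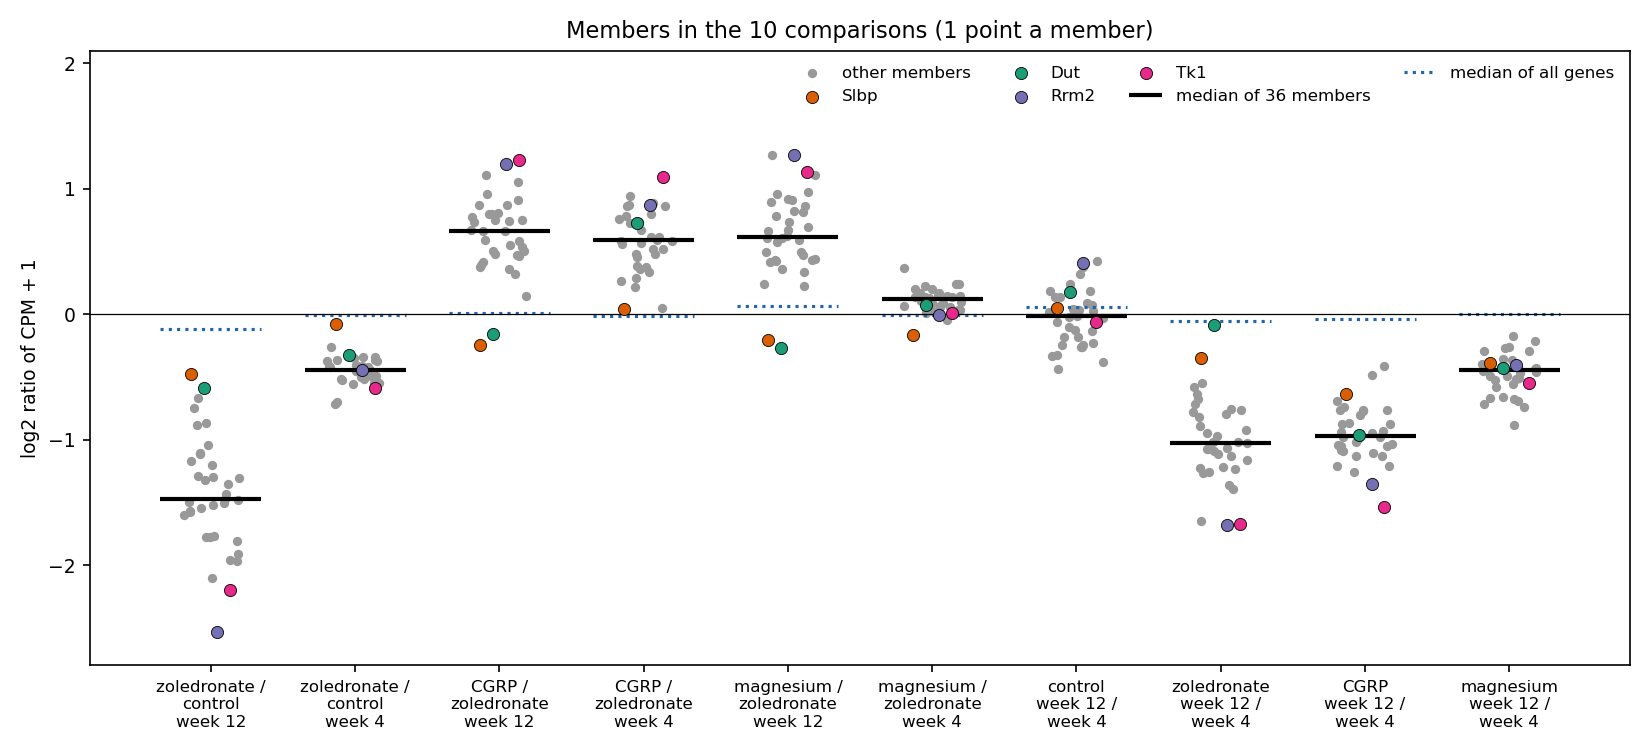
Log2 ratio of CPM + 1 for each of the 36 members (points) in the 10 comparisons, with the median of the members (solid line) and of all 7226 genes (dotted line). Slbp and Dut lie above the other members for zoledronate over control at week 12 and below 0 for CGRP or magnesium over zoledronate at week 12, while Rrm2 and Tk1 lie at the other end.

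The MCM helicase genes followed the median. Mcm2, Mcm3, Mcm4, Mcm6 and Mcm7 code for subunits of the ring that unwinds DNA. Mcm6 at week 12 stood at 29.6 CPM with CGRP, 30.5 CPM with magnesium, 15.7 CPM with zoledronate alone and 57.7 CPM in control. For Mcm6 at week 4, the levels were 58.2 CPM with CGRP, 40.6 CPM with magnesium, 38.1 CPM with zoledronate alone and 56.1 CPM in control. The zoledronate value of week 12 was the lowest of the 8, and the CGRP value of week 4 and both control values were the highest. Mcm3 at week 12 stood at 15.9 CPM with CGRP, 15.9 CPM with magnesium, 7.70 CPM with zoledronate alone and 33.0 CPM in control. For Mcm3 at week 4, the levels were 34.1 CPM with CGRP, 22.5 CPM with magnesium, 21.9 CPM with zoledronate alone and 31.3 CPM in control. Mcm3 had the lowest ratio of the helicase genes for zoledronate over control at week 12, at -1.96, and Mcm7 the highest, at -1.10. Mcm2 at week 12 stood at 14.2 CPM with CGRP, 13.9 CPM with magnesium, 10.1 CPM with zoledronate alone and 24.5 CPM in control. Mcm2, Mcm4 and Mcm6 lay between them, and the 5 genes had medians of -1.57 at week 12 and -0.48 at week 4. For CGRP over zoledronate their medians were 0.66 at week 12 and 0.52 at week 4, and for magnesium over zoledronate 0.58 and 0.04. Mcm5, which lay below the mean of 5 CPM, was at 2.54 CPM with CGRP, 2.66 CPM with magnesium, 1.03 CPM with zoledronate alone and 5.71 CPM in control at week 12.

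For zoledronate over control at week 12, the 2 licensing genes that reached the mean lay beyond the members' median of -1.47, at -1.84. The 3 genes of the factors that fire the helicase lay close to it, at -1.51. Gmnn codes for geminin, which binds Cdt1 and blocks a second licensing, and Cdc6 loads the helicase. Gmnn at week 12 stood at 26.5 CPM with CGRP, 26.7 CPM with magnesium, 14.7 CPM with zoledronate alone and 52.8 CPM in control. For Gmnn at week 4, the levels were 62.6 CPM with CGRP, 36.4 CPM with magnesium, 35.6 CPM with zoledronate alone and 48.0 CPM in control. Both control values and the CGRP value of week 4 exceeded all others. Cdc6 at week 12 stood at 5.19 CPM with CGRP, 5.15 CPM with magnesium, 2.56 CPM with zoledronate alone and 12.4 CPM in control. With zoledronate the week 12 levels of Gmnn and Cdc6 gave log2 ratios of -1.78 and -1.91 to control. Cdt1, the loader that geminin holds, stayed below the mean, at 2.72 CPM with CGRP, 2.76 CPM with magnesium, 1.40 CPM with zoledronate alone and 5.499 CPM in control at week 12. Gins1 at week 12 stood at 9.67 CPM with CGRP, 10.1 CPM with magnesium, 4.16 CPM with zoledronate alone and 16.6 CPM in control. For Gins1 at week 4, the levels were 21.8 CPM with CGRP, 13.2 CPM with magnesium, 11.3 CPM with zoledronate alone and 18.98 CPM in control. Gins1 codes for a GINS subunit, and its ratio of zoledronate to control was 0.597 (95% counting interval 0.562 to 0.634) at week 4, the second lowest of the members there. Cdc45 at week 12 stood at 4.60 CPM with CGRP, 5.32 CPM with magnesium, 2.23 CPM with zoledronate alone and 8.16 CPM in control. Gins2, another GINS subunit, had a smaller difference, at 8.66 CPM with CGRP, 8.58 CPM with magnesium, 6.46 CPM with zoledronate alone and 17.5 CPM in control at week 12.

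Polymerase and primase genes had the smallest median difference of the 9 roles for zoledronate over control at week 12. Prim1 codes for the catalytic primase subunit, Pola1 for that of polymerase alpha, and Pold3 for an accessory subunit of polymerase delta. Prim1 at week 12 stood at 45.1 CPM with CGRP, 46.9 CPM with magnesium, 33.5 CPM with zoledronate alone and 62.5 CPM in control. For Prim1 at week 4, the levels were 87.1 CPM with CGRP, 66.5 CPM with magnesium, 58.9 CPM with zoledronate alone and 81.5 CPM in control. The zoledronate library of week 12 was again lowest, and the 4 libraries of week 4 were all at 58.9 CPM or above. The median log2 ratio of the 3 genes for zoledronate over control was -0.88 at week 12, against -1.47 for all members. Pold3 at week 12 stood at 7.36 CPM with CGRP, 7.97 CPM with magnesium, 5.69 CPM with zoledronate alone and 10.2 CPM in control. Pola1 at week 12 stood at 6.74 CPM with CGRP, 5.51 CPM with magnesium, 4.15 CPM with zoledronate alone and 11.9 CPM in control. Pola1 had the lowest ratio of week 12 to week 4 with magnesium, 0.501 (95% counting interval 0.461 to 0.544). Pole, the catalytic subunit of polymerase epsilon, was below the mean, at 3.29 CPM with CGRP, 2.76 CPM with magnesium, 1.77 CPM with zoledronate alone and 6.90 CPM in control at week 12.

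The clamp, its loader and the enzymes that finish lagging strands varied among themselves. Pcna, the sliding clamp, departed from the median while the loader genes did not. Pcna at week 12 stood at 60.9 CPM with CGRP, 64.5 CPM with magnesium, 54.9 CPM with zoledronate alone and 101 CPM in control. For Pcna at week 4, the levels were 104 CPM with CGRP, 87.2 CPM with magnesium, 80.9 CPM with zoledronate alone and 111 CPM in control. The zoledronate over control ratio of Pcna at week 12 was 0.542 (95% counting interval 0.528 to 0.557), and CGRP over zoledronate was 1.11 (95% counting interval 1.08 to 1.14), among the smallest differences of the members in both. Rfc5 at week 12 stood at 10.4 CPM with CGRP, 11.8 CPM with magnesium, 5.79 CPM with zoledronate alone and 19.1 CPM in control. For Rfc5 at week 4, the levels were 22.1 CPM with CGRP, 14.4 CPM with magnesium, 10.98 CPM with zoledronate alone and 18.7 CPM in control. Rfc5, a clamp loader subunit, had the lowest zoledronate over control ratio of week 4 and the highest magnesium over zoledronate ratio of week 4, 1.31 (95% counting interval 1.23 to 1.40). Both contain the same zoledronate value of 10.98 CPM. Rfc3 at week 12 stood at 23.8 CPM with CGRP, 23.5 CPM with magnesium, 12.2 CPM with zoledronate alone and 27.6 CPM in control. Rfc3 with CGRP or magnesium therefore lay near control. Rfc2 and Rfc4, further loader subunits, were at 11.3 and 19.7 CPM with zoledronate and at 30.5 and 41.7 CPM in control at week 12. Lig1 at week 12 stood at 31.9 CPM with CGRP, 30.3 CPM with magnesium, 18.8 CPM with zoledronate alone and 47.3 CPM in control. Lig1 joins lagging strand fragments, and Fen1 trims them. Fen1 at week 12 stood at 11.2 CPM with CGRP, 12.5 CPM with magnesium, 7.14 CPM with zoledronate alone and 21.6 CPM in control.

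Nucleotide supply genes held both the largest and some of the smallest differences. Rrm2 codes for the small, cell-cycle regulated subunit of ribonucleotide reductase and Rrm1 for the large one. Rrm2 at week 12 stood at 78.6 CPM with CGRP, 82.7 CPM with magnesium, 33.7 CPM with zoledronate alone and 200.3 CPM in control. For Rrm2 at week 4, the levels were 203 CPM with CGRP, 109.7 CPM with magnesium, 110.4 CPM with zoledronate alone and 151 CPM in control. The ratio of zoledronate to control at week 12 was 0.168 (95% counting interval 0.163 to 0.173), the lowest of all members. Tk1 at week 12 stood at 22.6 CPM with CGRP, 21.1 CPM with magnesium, 9.08 CPM with zoledronate alone and 45.3 CPM in control. For Tk1 at week 4, the levels were 67.4 CPM with CGRP, 31.4 CPM with magnesium, 31.1 CPM with zoledronate alone and 47.2 CPM in control. Tk1, cytosolic thymidine kinase, had the highest CGRP over zoledronate ratios of both weeks on the log2 scale of CPM plus 1, at 1.23 and 1.09. As plain ratios of CPM, Tk1 had 2.49 (95% counting interval 2.34 to 2.65) at week 12, below the 2.64 (95% counting interval 2.34 to 2.99) of Clspn, and 2.17 (95% counting interval 2.096 to 2.24) at week 4. Rrm1 at week 12 stood at 42.4 CPM with CGRP, 42.1 CPM with magnesium, 22.8 CPM with zoledronate alone and 91.6 CPM in control. Tyms at week 12 stood at 5.77 CPM with CGRP, 5.21 CPM with magnesium, 4.26 CPM with zoledronate alone and 14.3 CPM in control. Tyms makes thymidylate. By difference in CPM, its CGRP and magnesium levels at week 12 lay nearer to zoledronate than to control. The same held for Mcm3, Mcm6, Gmnn, Rrm2 and the summed level of the members. By ratio, Rrm2 with magnesium lay slightly nearer to control. Dut at week 12 stood at 122 CPM with CGRP, 112 CPM with magnesium, 136 CPM with zoledronate alone and 204 CPM in control. For Dut at week 4, the levels were 238 CPM with CGRP, 152 CPM with magnesium, 144 CPM with zoledronate alone and 180.5 CPM in control. Dut removes dUTP so that uracil stays out of DNA. At week 12 the zoledronate value of Dut was higher than the CGRP and the magnesium value, as for Slbp and for no other of the 36 members, and control was highest.

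Histone supply and chromatin genes followed the median with the exception of Slbp. Slbp codes for the stem-loop binding protein that histone messages need, and Nasp for a histone chaperone. Slbp at week 12 stood at 39.95 CPM with CGRP, 41.1 CPM with magnesium, 47.6 CPM with zoledronate alone and 66.6 CPM in control. For Slbp at week 4, the levels were 62.7 CPM with CGRP, 54.3 CPM with magnesium, 60.9 CPM with zoledronate alone and 64.3 CPM in control. The ratio of CGRP to zoledronate for Slbp was 0.839 (95% counting interval 0.810 to 0.868) at week 12, and that of magnesium to zoledronate 0.862 (95% counting interval 0.834 to 0.892). Slbp and Dut were the only 2 of 36 members below 0 in these comparisons. Nasp at week 12 stood at 43.6 CPM with CGRP, 41.9 CPM with magnesium, 25.5 CPM with zoledronate alone and 74.0 CPM in control. For Nasp at week 4, the levels were 102 CPM with CGRP, 57.8 CPM with magnesium, 55.5 CPM with zoledronate alone and 74.7 CPM in control. Dek and Atad2 code for chromatin proteins, and Hells for a remodelling helicase. Dek at week 12 stood at 87.5 CPM with CGRP, 81.5 CPM with magnesium, 50.8 CPM with zoledronate alone and 126 CPM in control. For Dek at week 4, the levels were 180.4 CPM with CGRP, 115 CPM with magnesium, 104 CPM with zoledronate alone and 149.7 CPM in control. The CGRP value of week 4 was the highest for Dek and for Nasp. Atad2, Hells and Chaf1b, the last a subunit of the factor that places histones on new DNA, were at 13.6, 6.62 and 2.31 CPM with zoledronate and at 38.3, 20.2 and 8.54 CPM in control at week 12. Uhrf1, which couples DNA methylation to replication, was below the mean, at 1.45 CPM with CGRP, 1.73 CPM with magnesium, 0.513 CPM with zoledronate alone and 2.48 CPM in control at week 12.

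The E cyclins and the checkpoint genes completed the set. Ccne1 and Ccne2 code for cyclins that bring cells into S phase. Ccne1 at week 12 stood at 17.9 CPM with CGRP, 18.9 CPM with magnesium, 10.2 CPM with zoledronate alone and 37.3 CPM in control. For Ccne1 at week 4, the levels were 24.2 CPM with CGRP, 25.7 CPM with magnesium, 23.3 CPM with zoledronate alone and 29.7 CPM in control. Unlike most members, Ccne1 at week 4 was nearly level between CGRP and zoledronate, with a ratio of 1.04 (95% counting interval 0.992 to 1.09). Ccne2 at week 12 stood at 11.4 CPM with CGRP, 11.02 CPM with magnesium, 7.90 CPM with zoledronate alone and 26.1 CPM in control. Clspn codes for claspin, a checkpoint mediator, Usp1 for a deubiquitinase that acts on Pcna, and Ung for the glycosylase that removes uracil from DNA. Clspn at week 12 stood at 6.32 CPM with CGRP, 7.15 CPM with magnesium, 2.39 CPM with zoledronate alone and 13.6 CPM in control. For Clspn at week 4, the levels were 15.0 CPM with CGRP, 10.1 CPM with magnesium, 9.66 CPM with zoledronate alone and 14.3 CPM in control. The ratio of zoledronate to control for Clspn at week 12 was 0.176 (95% counting interval 0.157 to 0.196). Usp1 at week 12 stood at 32.7 CPM with CGRP, 30.8 CPM with magnesium, 22.9 CPM with zoledronate alone and 52.6 CPM in control. Ung at week 12 stood at 12.8 CPM with CGRP, 13.9 CPM with magnesium, 9.55 CPM with zoledronate alone and 15.8 CPM in control. Ung thus spanned a narrow range, and its ratio of zoledronate to control at week 12 was 0.604 (95% counting interval 0.565 to 0.645).

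**Figure D3:**
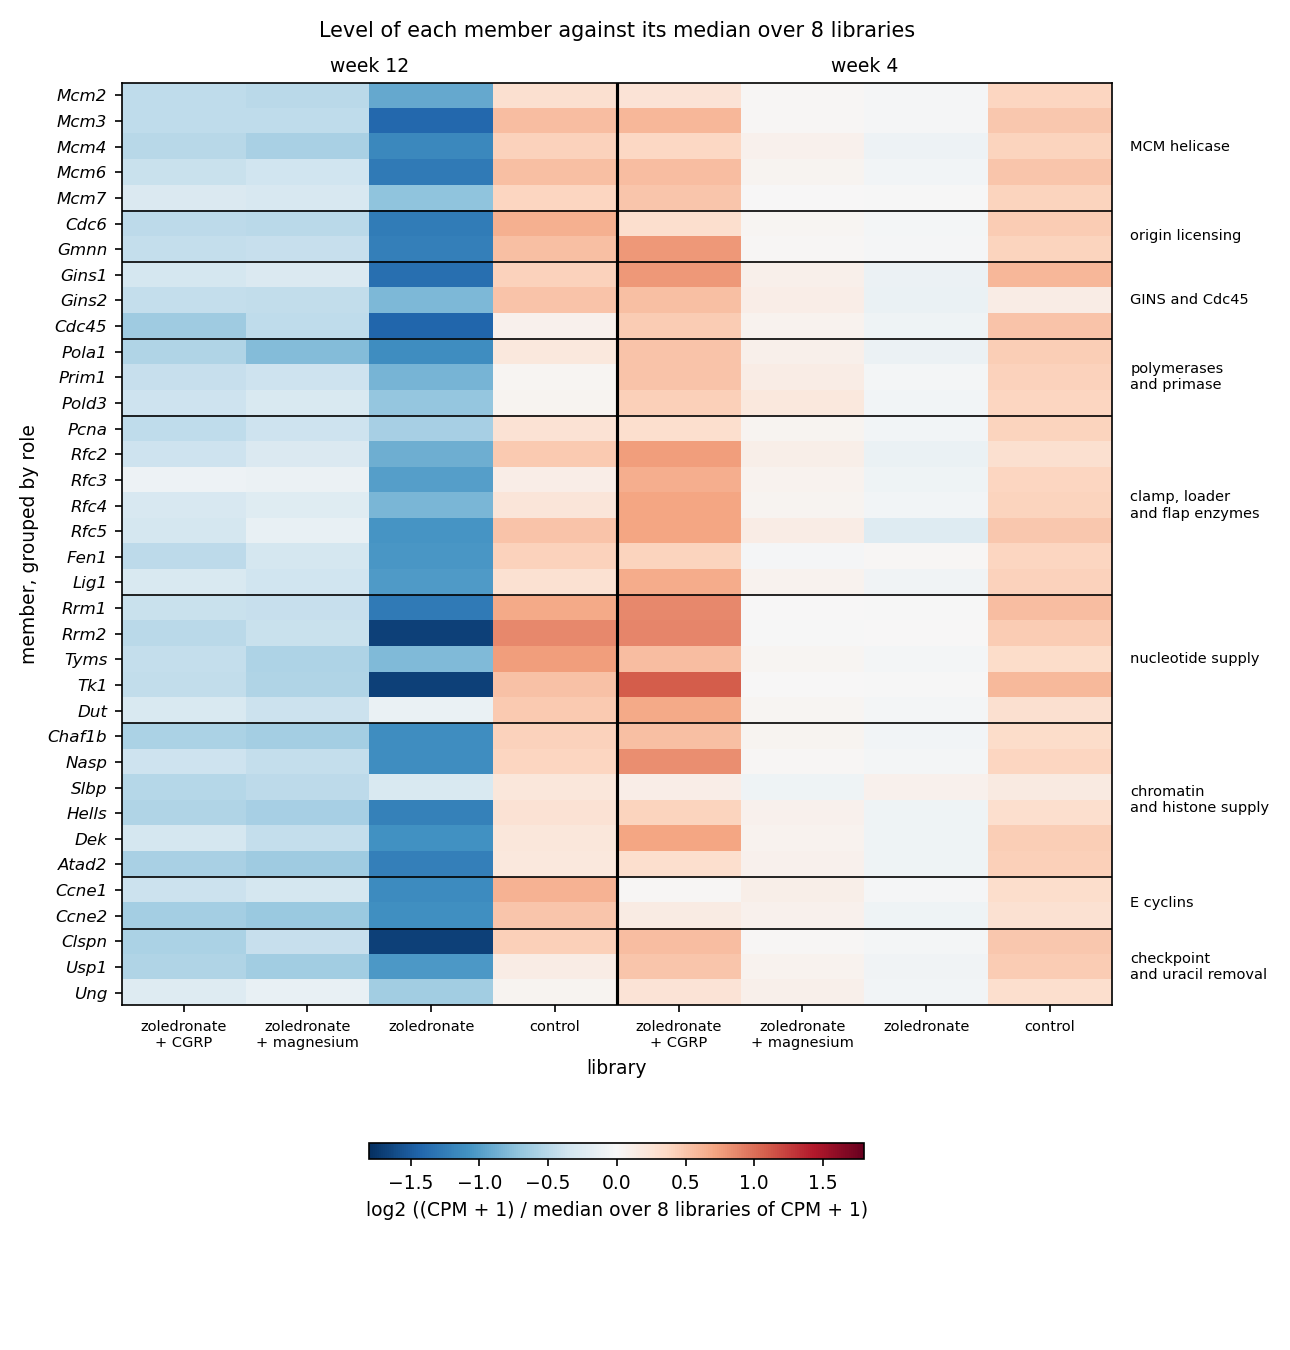
Level of each of the 36 members in the 8 libraries, as log2 of CPM + 1 over the member's own median of 8 libraries (blue lower, red higher), with members grouped by role. The zoledronate column of week 12 is the bluest for 34 members, with Dut and Slbp as the exceptions.

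Single members departed from the members' median by at least 1.5-fold in 4 of the 10 comparisons. For zoledronate over control at week 12 there were 9, with Rrm2 (-2.54), Tk1 (-2.20) and Clspn (-2.11) below the median of -1.47 on the log2 scale. Above it were Prim1 (-0.88), Pcna (-0.87), Pold3 (-0.75), Ung (-0.67), Dut (-0.59) and Slbp (-0.48). For CGRP over zoledronate at week 12 Slbp (-0.25) and Dut (-0.16) departed from a median of 0.66. For magnesium over zoledronate at week 12 Dut (-0.27) and Slbp (-0.21) lay below and Clspn (1.27) and Rrm2 (1.27) above a median of 0.62. For zoledronate at week 12 over week 4 Rrm2 (-1.68), Tk1 (-1.67) and Clspn (-1.65) lay below and Slbp (-0.35) and Dut (-0.08) above a median of -1.02. The 4 comparisons all contain the zoledronate library of week 12, so these departures are not independent of each other. The pseudocount of 1 CPM makes the ratios of low genes such as Clspn smaller than those of their counts.

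Member UMIs were unevenly spread over cells. Each cell was thinned at random to 5000 UMIs, so that depth was equal. The limits of 20 and 10 member UMIs used next were chosen after the data were seen. The share of cells with at least 20 member UMIs was, at week 12, 4.35% with CGRP, 4.75% with magnesium, 2.17% with zoledronate alone and 11.6% in control. At week 4 this share was 14.5% with CGRP, 9.15% with magnesium, 7.96% with zoledronate alone and 13.2% in control. The 95% interval of the zoledronate share of week 12 was 1.88 to 2.48, and that of the control share 10.9 to 12.3, in percent. The share with at least 10 was, at week 12, 14.3% with CGRP, 14.8% with magnesium, 6.23% with zoledronate alone and 34.8% in control. In the week 4 libraries it was 43.3% with CGRP, 21.9% with magnesium, 20.2% with zoledronate alone and 31.2% in control. With the lowest limit of 3 UMIs the shares at week 12 were 43.5% with CGRP, 43.5% with magnesium, 38.5% with zoledronate alone and 67.0% in control, and at week 4 72.8% with CGRP, 53.1% with magnesium, 50.3% with zoledronate alone and 61.6% in control. Without thinning, the shares for this limit at week 12 were 84.0% with CGRP, 93.6% with magnesium, 91.5% with zoledronate alone and 96.1% in control, and the CGRP library, the shallowest per cell, was then lowest. In the thinned cells the order of the 4 week 12 libraries was control above the CGRP and magnesium libraries, and these above zoledronate. CGRP and magnesium did not differ at week 12 beyond counting error at the limit of 3. Between 18 and 21 member UMIs, near the highest limit, lay 1.14% to 9.17% of cells. No cell type known to lack these genes was at hand as a measure of free RNA, so the share of cells with few member UMIs includes any such background. The mean member UMI count per thinned cell at week 12 was 4.35 with CGRP, 4.46 with magnesium, 3.10 with zoledronate alone and 8.15 in control, with medians of 2 in the CGRP, magnesium and zoledronate libraries and 5 in control. At week 4 the means were 9.53 with CGRP, 6.08 with magnesium, 5.70 with zoledronate alone and 7.82 in control.

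**Figure D4:**
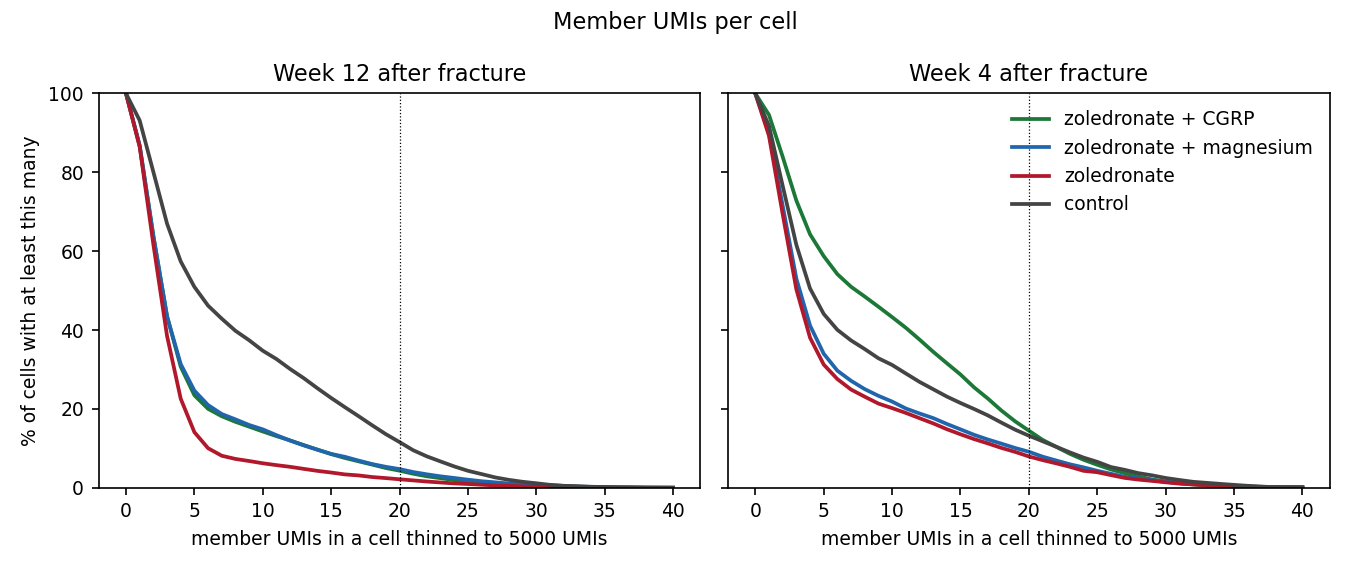
Percent of cells (y axis) with at least the number of member UMIs on the x axis after thinning each cell to 5000 UMIs, 1 line per library. The zoledronate line of week 12 falls fastest, to 2.17% at 20 UMIs (dotted line), against 11.6% in control.

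Cells with mitosis UMIs were set apart, because the mitosis list moved with the members. The range of at least 5 mitosis UMIs in a thinned cell is a cut on a count, not a cell type, and 0.733% to 5.02% of cells had 4 or 5. The share of cells in this range was, at week 12, 11.9% with CGRP, 12.1% with magnesium, 4.31% with zoledronate alone and 31.0% in control. For week 4 the share was 39.6% with CGRP, 17.6% with magnesium, 15.7% with zoledronate alone and 25.04% in control. Within it, the members' medians lay nearer to 0 than over all cells in every comparison but that of control at week 12 over week 4 (-0.03 in the range and -0.02 over all cells). The median log2 ratio of zoledronate to control at week 12 was -0.03 in this range, -0.58 in cells with 0 mitosis UMIs, and -1.47 over all cells. For CGRP over zoledronate at week 12 the medians were -0.17 in the range, 0.24 in cells with 0 mitosis UMIs and 0.66 over all. For magnesium over zoledronate at week 12 the medians were -0.15 in the range, 0.33 in cells with 0 mitosis UMIs and 0.62 over all. Over all genes the medians of these comparisons lay between -0.06 and 0.04 in the range. At week 4, zoledronate over control had -0.09 in the range and -0.32 in cells with 0 mitosis UMIs. Single members still lay away from 0 in the range. Slbp was at -0.79 for CGRP over zoledronate and -0.76 for magnesium over zoledronate at week 12. Ccne1 was at -0.66 for CGRP over zoledronate at week 4, and Pola1 at -0.90 for magnesium at week 12 over week 4. In these 4 comparisons, in this order, 2, 3, 1 and 1 of 36 members were at least 1.5-fold lower. The shares of all genes were 4.62%, 4.94%, 4.57% and 4.08%. Values this low were thus not particular to the members. With the range begun at 10 mitosis UMIs, a limit chosen after the data were seen, the zoledronate over control median of week 12 was -0.17, with 28 of 36 members below 0 and 3 at least 1.5-fold lower, where 4.096% of all genes were. With the same limit the CGRP over zoledronate median of week 12 was 0.017, and so its sign depends on the limit. Within the range the 40 members summed at week 12 to 2896 CPM with CGRP, 2882 CPM with magnesium, 3320 CPM with zoledronate alone and 3268 CPM in control. In cells with 0 mitosis UMIs they summed at week 12 to 443 CPM with CGRP, 447 CPM with magnesium, 442 CPM with zoledronate alone and 573 CPM in control. The share of cells with 0 mitosis UMIs was, at week 12, 70.7% with CGRP, 70.2% with magnesium, 85.7% with zoledronate alone and 40.1% in control.

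Members differed in how much higher they were in cells with mitosis UMIs. The ratio of the level in cells with at least 5 mitosis UMIs to that in cells with 0 had a median over the 8 libraries of 48.7 for Rrm2, 13.1 for Clspn, 9.60 for Tk1, 4.41 for Dut, 4.18 for Prim1, 3.91 for Pcna, 2.94 for Pold3, 2.42 for Slbp and 1.20 for Ung. These 9 members are those that departed in the zoledronate over control comparison of week 12. Members that did not depart there spanned much of the same range, with 11.1 for Gins1, 10.9 for Rrm1, 10.5 for Gmnn, 9.66 for Cdc45, 3.31 for Gins2, 2.95 for Mcm2 and 2.88 for Hells. In cells with 0 mitosis UMIs at week 12, Rrm2 was at 7.08 CPM with CGRP, 7.79 CPM with magnesium, 2.49 CPM with zoledronate alone and 17.8 CPM in control. Dut in the same cells was at 65.0 CPM with CGRP, 60.5 CPM with magnesium, 114 CPM with zoledronate alone and 88.8 CPM in control. Here the zoledronate library was highest for Dut and lowest for Rrm2. In cells with at least 5 mitosis UMIs at week 12, Slbp was at 71.5 CPM with CGRP, 73.1 CPM with magnesium, 125 CPM with zoledronate alone and 94.5 CPM in control, and zoledronate was highest. Among cells with at least 20 member UMIs, the share that also had at least 5 mitosis UMIs was 61.2% to 76.1% over the 8 libraries. Among cells with 0 mitosis UMIs, those with at least 20 member UMIs made up 0.113% to 1.15%.

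**Figure D5:**
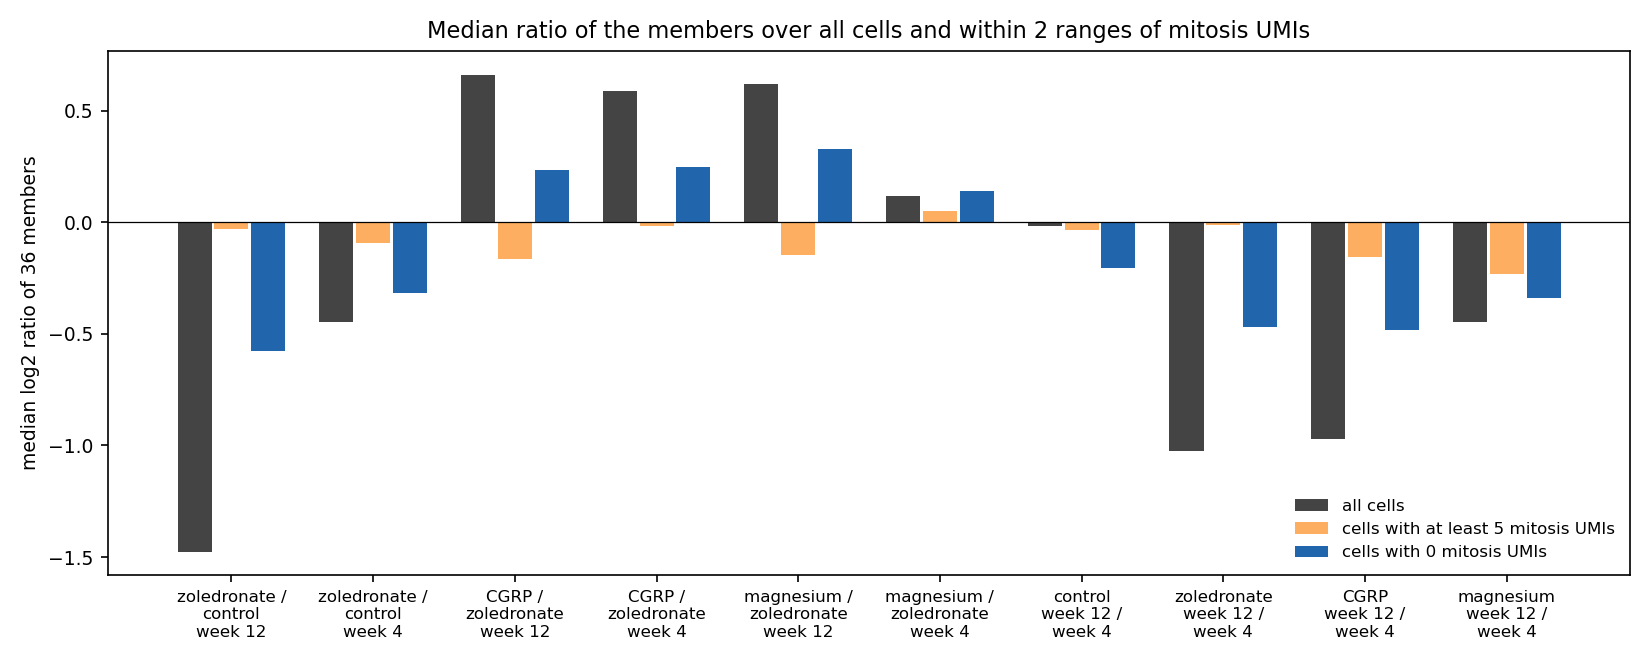
Median log2 ratio of the 36 members in the 10 comparisons, over all cells, over cells with at least 5 mitosis UMIs and over cells with 0 mitosis UMIs. For zoledronate over control at week 12 the bars reach -1.47, -0.03 and -0.58.

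Other genes of the pathway were listed from textbook knowledge with earlier results of these data known. For zoledronate over control at week 12 their median lay nearer to 0 than that of the members. Of 58 other replication genes, 49 were listed and 36 reached the mean of 5 CPM, with a median of -0.998 for zoledronate over control at week 12. Of these, 24 were at least 1.5-fold lower, where 12.1% of all genes were. The lowest were Pclaf (-2.13), a partner of the Pcna clamp, and Asf1b (-2.09), a histone chaperone, and the highest was Pold4 (0.55), a small subunit of polymerase delta. Pold4 at week 12 was at 95.9 CPM with CGRP, 80.5 CPM with magnesium, 90.5 CPM with zoledronate alone and 61.6 CPM in control. It was thus higher with zoledronate than in control, and slightly higher with CGRP than with zoledronate. At week 4 Pold4 went the other way for CGRP over zoledronate. It was the lowest of these genes there, at -0.63 on the log2 scale, while 33 of the 36 lay above 0. The origin recognition gene Orc3 (0.13) was the next highest for zoledronate over control at week 12. Of 13 E2F and pocket protein genes, 10 were listed and 6 reached the mean. Their median for zoledronate over control at week 12 was -0.12, as over all genes. Of the 6 genes, 1 was at least 1.5-fold lower, where 12.1% of all genes were. Another 1 was at least 1.5-fold higher, where 386 of all 7226 genes were. E2f1, an activator of S-phase genes, was at 11.5 CPM with CGRP, 12.6 CPM with magnesium, 6.83 CPM with zoledronate alone and 17.8 CPM in control at week 12. Its zoledronate over control ratio was -1.27 on the log2 scale, while Rbl2, a pocket protein, was 0.74 and Rb1 0.39. The mitosis list had 20 genes, of which 19 were listed and 18 reached the mean, with medians of -2.51 for zoledronate over control at week 12 and -0.68 at week 4. For CGRP over zoledronate its medians were 1.35 at week 12 and 1.11 at week 4, and for magnesium over zoledronate 1.22 and 0.12. In each of the 6 treatment comparisons but magnesium at week 4, the mitosis median was farther from 0 than the members' median.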

How the data were processed

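The authors deposited 1 table of raw UMI counts per library, genes by barcodes, in whole numbers. Reads were aligned with STAR to Rnor_6.0, per the submitters' processing notes; the sources used here do not give the STAR version, the annotation or the cell calling. Libraries are 10x Chromium V3 runs with 10000 cells as input. Barcodes with at least 5000 UMIs were kept, their UMIs were summed per gene and library and scaled to 1000000 (CPM), and ratios are log2 of CPM plus 1, the group named first over the second. A mean of at least 5 CPM over 8 libraries was required. Called genes were past 1.5-fold. Cells were thinned with a fixed seed to 5000 UMIs. No test was made, and doublets were not removed. Intervals are exact Poisson for CPM, exact conditional for ratios and exact Clopper-Pearson for shares, at 95%. Alternatives were all barcodes, a minimum of 10000 UMIs, thinned cells, every listed member, a pseudocount of 0.1, and TMM (edgeR 4.0.16) or DESeq2 1.42.0 factors. Python 3.11.15, numpy 2.4.6, scipy 1.17.1 and R 4.3.3 were used, and the ratio script was tested on simulated data. Members are named by role, and the text names those that depart by 1.5-fold and some of the lowest and highest of a comparison. The members and lists were chosen with earlier results of these data known.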

Additional observations from a re-analysis of the deposited data

Results flagged for a closer look

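Barcodes with fewer than 5000 UMIs, which entered none of the comparisons, also held member UMIs. In the CGRP library of week 4 the members summed to 2360 CPM in these barcodes (95% counting interval 2283 to 2439), against 1872 CPM in the same barcodes of the control library of week 4 (1808 to 1939). It stood out because it lay above the level in control. The same order held at week 4 in cells with at least 5000 UMIs, at 1971.0 CPM with CGRP and 1698.3 CPM in control. In the barcodes under 5000 UMIs the sum at week 4 was 1388 CPM with magnesium and 1292 CPM with zoledronate alone. At week 12 it was 865 CPM with CGRP, 840.4 CPM with magnesium, 755 CPM with zoledronate alone and 1675 CPM in control.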

How the results depend on the processing

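No paired analysis was possible because each group is 1 library and the labels carry no replicate numbers; for the same reason no library could be left out of a group. Of the medians of the 10 comparisons, only the control median of week 12 over week 4, which lay near 0, changed sign, to 0.0026 with thinned cells and 0.0018 with every listed member, against -0.0183. The zoledronate over control median of week 12 was -1.37 with TMM, -1.35 with DESeq2 factors and -1.56 with a pseudocount of 0.1, against -1.47. The control median of week 12 over week 4 was -0.0811 with TMM and -0.0800 with DESeq2 factors, against -0.02, and the zoledronate one -1.11 with the smaller pseudocount. With at least 10000 UMIs, CGRP over zoledronate at week 12 was 0.76 and CGRP at week 12 over week 4 was -0.87. Thinned cells gave 0.66 for CGRP over zoledronate at week 4. Members at least 1.5-fold lower for zoledronate over control at week 4 numbered 5 with thinned cells and with the smaller pseudocount, against 3. For magnesium at week 12 over week 4 they numbered 11 with the smaller pseudocount, against 7. The share of all genes past 1.5-fold was not counted under these alternatives, so a rise particular to the members cannot be told from one over all genes. All barcodes and every listed member moved no median beyond counting error. Within cells of at least 10 mitosis UMIs, added after the data were seen, the CGRP over zoledronate median of week 12 was 0.017, against -0.17, the zoledronate over control median of week 12 was -0.17, against -0.03, and the CGRP median of week 12 over week 4 was -0.0678, against -0.16. The CGRP over zoledronate median of week 4 was 0.0171, against -0.0159. The control median of week 12 over week 4 changed sign too, to 0.00285, against -0.0347. Cells with at least 3 member UMIs, thinned to 2500 UMIs, were 24.0% with CGRP, 25.03% with magnesium, 15.5% with zoledronate alone and 49.5% in control at week 12, and 56.6% with CGRP, 33.4% with magnesium, 31.7% with zoledronate alone and 43.8% in control at week 4. Without thinning they were 84.0% with CGRP, 93.6% with magnesium, 91.5% with zoledronate alone and 96.1% in control at week 12, and 98.0% with CGRP, 96.3% with magnesium, 95.9% with zoledronate alone and 97.5% in control at week 4. The cause was not tested, except that fewer UMIs per cell lower such a share by construction. Only 1 library per group limits all comparisons, and intervals leave out the spread between rats and dishes.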
